A study of Mus musculus with 26 samples.

Results

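Levels of mRNA were compared between the control cultures of 2 RNA-seq experiments on mouse pro-B cells, one with intact Rag1 and the other lacking it. The genes compared were those listed in the deposited tables of both experiments with at least 5 RPM in either control mean. RPM stands for reads per 1000000 over the genes that both tables list, and is not divided by gene length. This rule kept 10411 of 17846 shared genes, measured in 5 of the 26 samples of the series. The series asks how pro-B cells depend on Brg1, the ATPase subunit of SWI/SNF chromatin remodelling complexes, and the samples in which Brg1 was deleted or knocked down were not used here.

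The Brg1+/+ controls (ProB_ctrl, 2 libraries) were Brg1+/+ x ER-Cre cells of C57/Bl6 mice, treated with 0.3 µM tamoxifen during the final 60 hours. ER-Cre is a Cre recombinase that tamoxifen activates, and in these cells Brg1 carried no floxed allele for it to delete. The Rag1-/- controls (Rag1ko ctrl-sh, 3 libraries) came from C57/Bl6 mice that lack Rag1, and the labels give them no ER-Cre and no tamoxifen. They were spin-infected on days 3 and 4 with a retrovirus that was produced in 293T cells and carried a control hairpin (Ctrl-sh), and infected cells were enriched 2 days later on hCD25 magnetic beads. All 5 cultures began from B220+ bone marrow cells and were kept for 7 days with IL7 and SCF, the cytokines that support early B cell growth. The labels give no age or sex of the mice, and no source states whether libraries within a group derive from separate mice or cultures. The Rag1 genotype, ER-Cre, tamoxifen, infection, bead enrichment and experiment all changed together between the groups, so their parts in any difference below cannot be told apart.

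Pro-B cells are the stage of B cell development at which the immunoglobulin heavy chain gene is assembled by V(D)J recombination. Rag1 and Rag2 form the recombinase that cuts the DNA, and end-joining factors and the polymerase Dntt complete the joint. A cell that lacks Rag1 makes no functional receptor and stops at this stage, while a cell with intact Rag1 can go on to the pre-B stage, where the new heavy chain is displayed with the surrogate light chain.

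Each deposited control column holds 1 mean per group. The mean of the Brg1+/+ group could be split into whole reads of its libraries for 9466 of the 10411 genes, and these libraries carry no replicate number and are called deeper (10777765 reads) and shallower (10203492 reads). The Rag1-/- mean could not be split, so it stands without a spread, and no test was possible. The steps in that mean put the depths of its libraries at about 10509709, 9422267 and 5201290 reads. At the floor of 5 RPM, about 105 reads lay behind a Brg1+/+ mean and about 126 behind a Rag1-/- mean. A compared gene under the floor in 1 group entered through the other group alone, which fixes its direction, though not its size. Differences are given as log2 of the Rag1-/- mean over the Brg1+/+ mean after 1 RPM was added to both, which understates the fold of low genes. They are read against the gap between the Brg1+/+ libraries. A pair of values set against another value gives the deeper and shallower Brg1+/+ library and then the Rag1-/- mean, all as RPM, and values called means are given for the Brg1+/+ and then the Rag1-/- group.

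The control groups were close over most genes. The median log2 difference was -0.04 and the median size of a difference was 0.17, smaller than the 0.26 between the libraries of the Brg1+/+ group, each of which is a single library and not a mean. At a 4-fold minimum, 31 genes (0.298% of those compared) were higher in the Rag1-/- controls and 140 (1.34%) were lower. At a 2-fold minimum the counts were 124 (1.19%) and 377 (3.62%). Between the Brg1+/+ libraries themselves, 143 of 9598 genes (1.49%) lay at least 4-fold apart, a share close to that of the whole comparison. At a 2-fold minimum, 6.14% of those genes lay apart between the Brg1+/+ libraries. The Rag1-/- mean lay above both Brg1+/+ libraries in 26.1% of the 9466 split genes and below both in 35.1%, and by at least 2-fold in 0.761% and 2.08%. All 31 higher genes lay above both by at least 2-fold, which a 4-fold difference from the mean of 2 libraries makes certain. Of the 140 lower genes, 132 could be split into libraries, 127 of these lay below both libraries and 108 below both by at least 2-fold, a description only, since the mean of the same libraries chose these genes. Without the deeper library the counts became 47 higher and 227 lower, and without the shallower library 55 and 78.

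**Figure D1:**
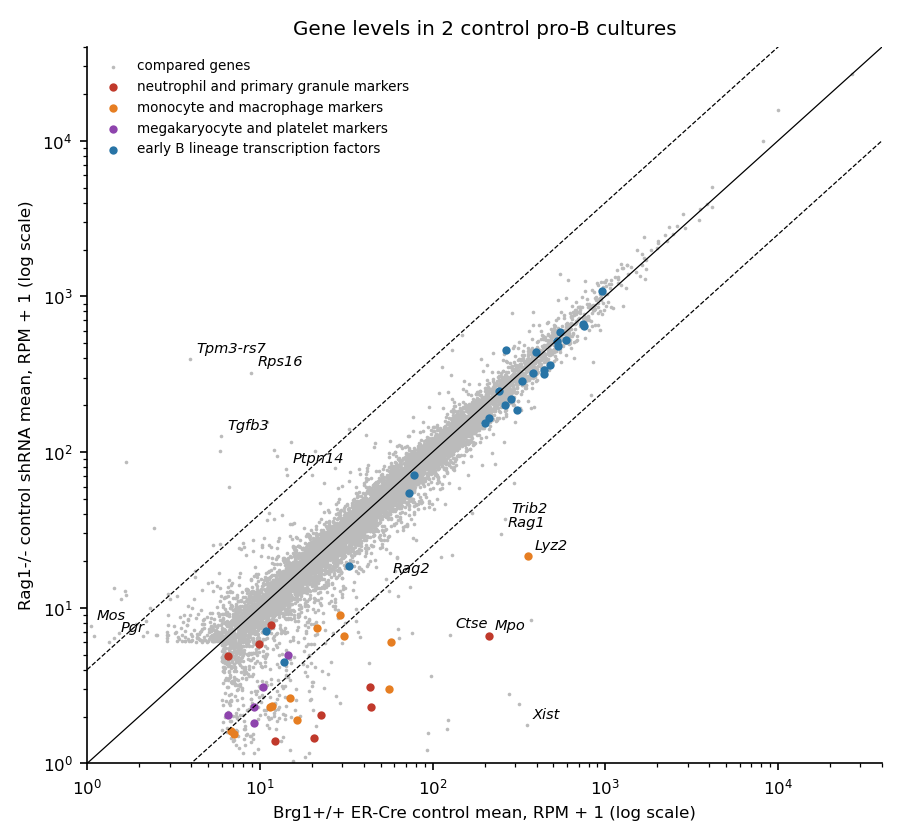
Mean level of each of the 10411 compared genes in the Brg1+/+ ER-Cre controls (horizontal) and the Rag1-/- controls (vertical), in RPM plus 1 on log axes, with the line of equality solid and the 4-fold limits dashed. Apart from Id2, transcription factors of early B cells lie within 2-fold of the line of equality, and granule, monocyte and platelet markers lie below it.

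Recombinase genes were lower in the Rag1-/- controls. Rag1 (ENSMUSG00000061311, mm10 chr2:101638282-101649501, minus strand) had a mean of 247.9 RPM in the Brg1+/+ controls and 28.9 in the Rag1-/- controls, a log2 difference of -3.06. The Brg1+/+ mean of Rag1 fits whole reads in 2 ways, as 277 and 219 RPM in the deeper and shallower library or as 464 and 31.7. The Rag1-/- mean lay below every one of these values, and it was not 0. No source used here says which bases the Rag1 allele has lost, so reads from a remaining part of the gene check the genotype only in direction. Rag2, the partner of Rag1, lies on the opposite strand 5.753 kb away. It stood at 58.1 and 47.3 RPM in the Brg1+/+ libraries and 14.3 in the Rag1-/- mean (log2 difference -1.81). Polm, a DNA polymerase of end joining, stood at 25.1 and 27.5 against 9.82 (-1.33). For both genes the Rag1-/- mean was under each Brg1+/+ library, by more than the libraries differed.

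The rest of the joining machinery lay closer together. Of 15 compared members of the recombinase and end-joining list, 3 were at least 2-fold lower and none was 2-fold higher, where 3.62% and 1.19% of all compared genes were, and the median log2 difference was -0.17. Dntt, the polymerase that adds bases without a template, had 151 and 95.2 RPM in the Brg1+/+ libraries and 94.6 in the Rag1-/- mean, at the edge of the range of the libraries. Lig4, the ligase that seals the joint, had 71.1 and 54.6 against 74.2, and Xrcc5, a subunit of Ku, had 31.6 and 28.1 against 38.1.

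Genes around Rag1 were examined because the neighbourhood of a targeted locus travels with it in breeding. Within 5 Mb, 6 of 28 compared genes (21.4%) passed 2-fold in either direction, Rag1 and Rag2 included, where 4.81% of all compared genes did, with a median log2 difference of -0.07 over the window. The other lower genes were the antisense transcript Gm13919, at 6.22 and 7.93 RPM against 3.00, and Gm10800, which stood at 0.283 and 70.2 in the Brg1+/+ libraries and 10.8 in the Rag1-/- mean. The higher genes were the complement regulator Cd59b, at 3.20 and 2.51 against 9.22, and the pseudogene Rpl10-ps1, at 24.3 and 15.2 against 100.7. Gm10800 lay between its own libraries, and the others lay outside them. In a window of 10 Mb the same count of 6 stood among 55 genes (10.9%).

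Antigen receptor transcripts differed in which segments were listed. The Brg1+/+ table lists 67 heavy chain variable segments (Ighv) that sum to 16.7 RPM, and the Rag1-/- table lists 9 that sum to 1.39, with 7 in common. For kappa variable segments (Igkv) the tables list 67 and 30, with sums of 30.7 and 15.8 and 26 in common. A segment that a table does not list is not thereby shown at 0, and no Ighv or Igkv segment reached the floor in either table. Ighj1, a joining segment, showed the opposite direction, with 0.188 and 0.483 RPM in the Brg1+/+ libraries and 5.00 in the Rag1-/- mean. Constant regions differed less. Ighm, the mu heavy chain constant region, stood at 2205 and 2472 and Igkc at 105 and 83.3 in the Brg1+/+ and Rag1-/- means. Ighg2b, a gamma constant region, had means of 141 and 57.8, but its Brg1+/+ mean fits whole reads in 2 ways, as 72.0 and 210 RPM or as 259 and 22.6, so the Rag1-/- mean may lie below both libraries or between them. Iglc2, a lambda constant region, stood at 2.19 against 0.191, under the floor in both groups. Among T cell receptor genes, whose gamma constant regions are transcribed in early lymphocytes, Tcrg-C2 stood at 74.3 and 65.9 against 33.7, under both libraries, while Tcrg-C1 stood at 38.4 and 33.3 against 40.3.

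Markers of the labelled cell type were high in both groups. Cd79a, a signalling chain of the receptor, had 875 RPM in the Brg1+/+ mean and 881 in the Rag1-/- mean. Its partner Cd79b had 777 and 707. Igll1 and Vpreb1, which form the surrogate light chain, had 503 and 625, and 357 and 466. None of the 23 compared members of the list of pre-B receptor and signalling genes passed 2-fold in either direction (median -0.14), where 1.19% and 3.62% of all compared genes passed. Blk, a Src family kinase of B cells, differed most, with 118 and 139 RPM in the Brg1+/+ libraries and 218 in the Rag1-/- mean. Of 25 early B cell transcription factors, 1 was at least 2-fold lower and none higher. Pax5, which commits cells to the B lineage, had means of 477 and 363, Ebf1 754 and 644, and Ikzf1 395 and 437. The single factor past 2-fold, Id2, which blocks E proteins, stood at 3.30 and 22.4 in the Brg1+/+ libraries and 3.49 in the Rag1-/- mean, inside the range of the libraries. Irf8 had the highest log2 difference (0.77), with means of 264 and 451.

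Surface genes of the steps before and after the pro-B stage showed larger differences in single members. Il2ra, the IL-2 receptor alpha chain that marks pre-B cells, had 31.4 and 19.8 RPM in the Brg1+/+ libraries and 5.86 in the Rag1-/- mean (log2 difference -1.95). Cd38 had 73.2 and 63.1 against 32.6 (-1.04). In both genes the Rag1-/- mean was below both libraries. Other genes of later stages were higher in the Rag1-/- mean. Cd22, an inhibitory receptor, had means of 149 and 255 (0.77), Cd72 had 109 and 92.2 against 144, and Cxcr5, a chemokine receptor, had 78.2 and 41.0 against 84.9. Of 15 compared genes of later stages, 5 were at least 2-fold lower (3.62% of all compared genes were) and none 2-fold higher, with 6 above 0 and a median of -0.15. Among genes of progenitors, Kit, the receptor for SCF, had 65.3 and 27.1 against 17.3 (-1.36), and Cd34 had 4.90 and 11.3 against 0.434 (-2.67). Il7r, the receptor for IL7, had 174 and 100.5 against 102, within the range of the libraries. Ms4a1, which encodes CD20, shows how far the Brg1+/+ libraries could differ, with 9.51 and 106 RPM against 96.1.

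**Figure D2:**
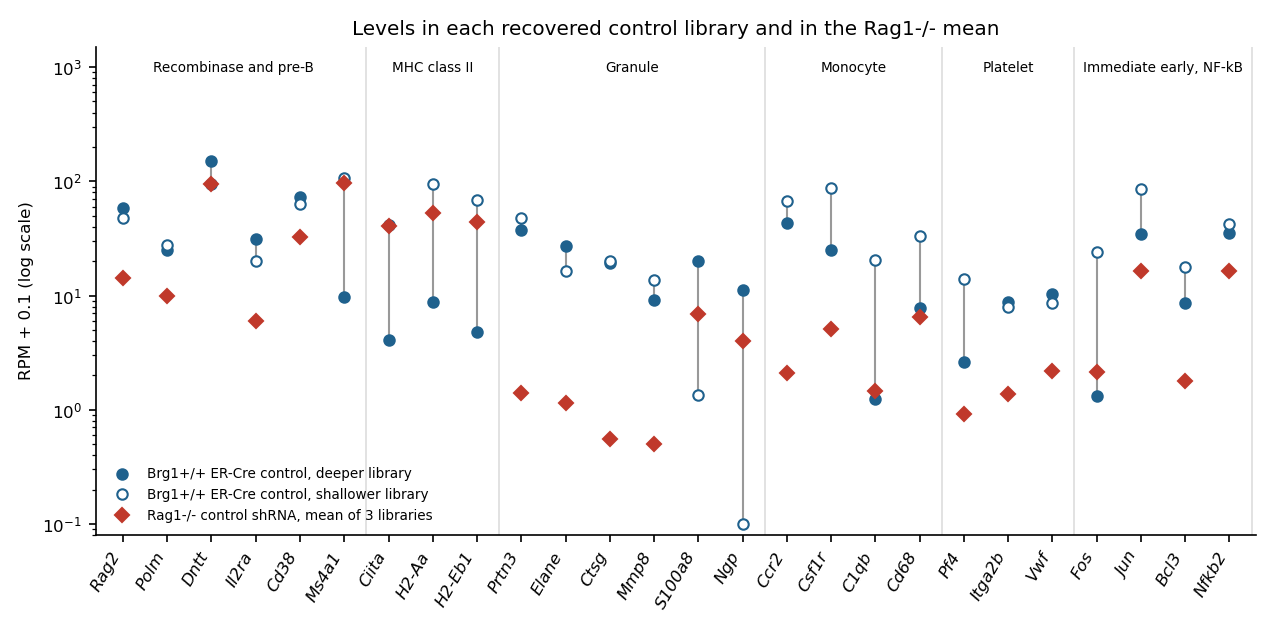
Level of selected genes in the deeper (filled circle) and shallower (open circle) Brg1+/+ ER-Cre library and in the Rag1-/- mean of 3 libraries (diamond), in RPM plus 0.1 on a log axis, grouped by function. The diamonds of Prtn3, Elane, Ctsg, Mmp8 and Ccr2 lie far below both circles, and those of the MHC class II genes lie between or at the circles.

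Genes of class II antigen presentation did not separate the groups, and the Brg1+/+ libraries enclosed the Rag1-/- mean in most of them. Ciita, the class II transactivator, had 3.96 and 41.2 RPM in the deeper and shallower library and 40.2 in the Rag1-/- mean. H2-Aa, a class II chain, had 8.67 and 94.0 against 52.8, and H2-Eb1 had 4.71 and 69.0 against 44.3. The shallower library was higher in all 11 members that could be split, and the Rag1-/- mean lay between the libraries in 9 of them. The list median was -0.00 with both libraries and 1.86 without the shallower one. Its direction therefore depended on which Brg1+/+ library was used.

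Genes of other blood cells made up the clearest lower group. Of 32 lists with at least 5 compared members, 3 had a median at least 2-fold from 0, all in the lower direction. These were the markers of neutrophils and primary granules (median log2 difference -3.47), of monocytes and macrophages (-2.31), and of megakaryocytes and platelets (-1.75), where the median of all compared genes was -0.04. They supplied part of the 4-fold lower genes, with 6, 10 and 2 members among the 140. Many of their members were under the floor in the Rag1-/- mean and were compared through the Brg1+/+ mean alone. That fixes the direction of such genes, though not its size. The same lists are the check for other cells in a B220+ culture. The part of these cells in the other differences was not tested, and in bulk RNA fewer cells of a type and less RNA per cell cannot be told apart.

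Granule proteases of myeloid progenitors led the list with the lowest median. Prtn3, proteinase 3, had 37.7 and 47.9 RPM in the Brg1+/+ libraries and 1.30 in the Rag1-/- mean (log2 difference -4.25). Ctsg, cathepsin G, had 19.03 and 20.0 against 0.452 (-3.82), and Elane, neutrophil elastase, had 26.8 and 16.3 against 1.04 (-3.47). Both Brg1+/+ libraries were high for all of these genes, and they were much closer to each other than to the Rag1-/- mean. Mpo, myeloperoxidase, had a mean of 210 against 5.56 (-5.01). Its Brg1+/+ mean fits whole reads in 2 ways, and the lowest library value among them is 71.9. Ly6c2, a surface antigen of monocytes and neutrophils, had 32.9 and 52.2 against 2.09, and Mmp8, a granule collagenase, had 9.04 and 13.5 against 0.397.

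The other compared members of the list, S100a8, S100a9 and Ngp, did not follow. S100a8 and S100a9, the subunits of calprotectin, had 20.1 and 1.26, and 17.6 and 0.193, in the deeper and shallower library, against 6.80 and 4.83. Ngp, a late granule protein, had 11.1 in the deeper library and 0 reads in the shallower, which allows up to 0.290 RPM (3 reads, counting error only), against 3.89. For these genes the deeper library alone was high and the Rag1-/- mean lay between the libraries. Thus 6 of the 9 compared members were at least 2-fold lower, where 3.62% of all compared genes were, and none was higher. Of the 8 that could be split, 5 lay below both libraries, where 35.1% of all split genes did. Only Mpo and S100a8 reached the floor of 5 RPM in the Rag1-/- mean. The others were compared through the Brg1+/+ mean alone, which fixes their direction, though not its size. The 13 list members found in both tables summed to 381 and 28.2 RPM in the Brg1+/+ and Rag1-/- means.

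Elane and Prtn3 are neighbours on chromosome 10, on the same strand with 3.138 kb between them (mm10 chr10:79886312-79888216 and chr10:79874476-79883174). Among genes within 100 kb of Prtn3, Elane alone passed 4-fold, while Med16 had 43.8 and 62.8 against 51.8 and Ptbp1 had means of 820 and 862. The 250 bases upstream of the RefSeq start (GRCm38.p6) are shown for 4 granule genes, since all of them were lower in the Rag1-/- mean. The genes were chosen after their values were seen, and the distances count from the RefSeq start. That start lies inside the deposited gene interval by 5191 bases for Prtn3 and 203 bases for Mpo, so most of the Mpo window overlaps the deposited gene. Capitals mark GAGGAA, a core of the sites bound by ETS factors, and AACGG, a core of the sites bound by Myb, both known from work on myeloid promoters. Both strands were searched, every match shown is on the strand of the gene. The motifs can overlap, since GAGGAA can run into AACGG through shared letters, but no matches overlap in these 4 windows.
Elane, chr10:79886062-79886311, plus strand: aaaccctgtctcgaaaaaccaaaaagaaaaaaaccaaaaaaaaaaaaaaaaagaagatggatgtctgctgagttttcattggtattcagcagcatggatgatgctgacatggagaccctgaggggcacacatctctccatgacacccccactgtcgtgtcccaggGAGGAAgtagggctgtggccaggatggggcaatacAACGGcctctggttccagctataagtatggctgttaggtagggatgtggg
Prtn3, chr10:79879417-79879666, plus strand: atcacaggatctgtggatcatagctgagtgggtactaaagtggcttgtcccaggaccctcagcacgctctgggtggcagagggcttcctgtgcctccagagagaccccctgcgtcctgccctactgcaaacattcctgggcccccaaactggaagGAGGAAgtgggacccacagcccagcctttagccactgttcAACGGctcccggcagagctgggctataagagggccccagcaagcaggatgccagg
Mpo, chr11:87793534-87793783, plus strand: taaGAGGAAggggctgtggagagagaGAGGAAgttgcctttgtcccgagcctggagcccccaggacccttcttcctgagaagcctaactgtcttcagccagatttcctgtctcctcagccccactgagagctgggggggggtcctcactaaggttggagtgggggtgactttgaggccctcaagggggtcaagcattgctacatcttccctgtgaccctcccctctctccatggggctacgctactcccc
Ctsg, chr14:56102575-56102824, minus strand: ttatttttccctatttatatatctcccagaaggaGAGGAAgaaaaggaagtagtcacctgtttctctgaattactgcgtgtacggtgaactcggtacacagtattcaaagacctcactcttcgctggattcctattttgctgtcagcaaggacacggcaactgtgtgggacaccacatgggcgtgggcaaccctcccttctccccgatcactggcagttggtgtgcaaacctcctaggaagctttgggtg
In Elane the motifs begin 85 and 50 bases before the start, and in Prtn3 95 and 55 bases before it. Mpo holds GAGGAA at 247 and 224 bases and Ctsg at 216 bases, and neither holds the Myb core. Of 32851 RefSeq promoter windows of the same length, GAGGAA occurs in 23.3%, AACGG in 14.5%, and both together in 3.33%. These matches describe the letters in the windows and nothing about binding in these cells.

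Among compared monocyte and macrophage markers, 12 of 12 were at least 2-fold lower, as 3.62% of all compared genes were. Only Apoe, Cd68, Csf1r, Itgam and Lyz2 reached the floor of 5 RPM in the Rag1-/- mean. The others were compared through the Brg1+/+ mean alone, which fixes their direction, though not its size. Ccr2, the chemokine receptor of inflammatory monocytes, had 43.1 and 67.4 RPM in the Brg1+/+ libraries and 2.00 in the Rag1-/- mean (log2 difference -4.23). Csf1r, the M-CSF receptor, had 25.1 and 88.2 against 5.01 (-3.26), and Lyz2, lysozyme, had a mean of 356 against 20.5 (-4.05). The Rag1-/- mean was below both libraries in 10 of the 11 members that could be split, where it was in 35.1% of all split genes. At the other end of the list, macrophage genes were highest in the shallower library. C1qb, a complement subunit, had 1.13 and 20.3 against 1.35, and Cd68 had 7.72 and 32.9 against 6.45. The shallower library was higher in all 11 split members, and without it the list median was -1.98. The 17 list members found in both tables summed to 622 RPM in the Brg1+/+ mean and 55.2 in the Rag1-/- mean, and C1qa, below the floor, had means of 1.93 and 0.0635.

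Platelet markers differed in 5 of 5 compared members, all at least 2-fold lower and each below both Brg1+/+ libraries. Of all compared genes, 3.62% were at least 2-fold lower. All 5 members were under the floor of 5 RPM in the Rag1-/- mean and were compared through the Brg1+/+ mean alone. The filter thus fixed their direction, though not its size. Itga2b, integrin alpha IIb, had 8.76 and 7.83 RPM against 1.29, Vwf, von Willebrand factor, had 10.3 and 8.51 against 2.09, and Itgb3 had 15.4 and 11.8 against 3.98. Pf4, platelet factor 4, had 2.54 and 13.9 against 0.821. Among 4 compared mast cell genes, Cma1, Cpa3 and Tpsb2 were at least 2-fold lower and the shallower library held most of their reads, with 2.83 and 17.2 against 2.20 for Cma1. Cma1, Cpa3 and Tpsb2 were likewise under the floor in the Rag1-/- mean. The 10 platelet members found in both tables summed to 49.7 and 10.3 in the group means. Lists of further cell types held both low and well expressed genes. Cd3d, of the T cell receptor complex, had 0.958 and 0.354, Klf1, of erythroid cells, had 0.144 and 0.234, and Col1a1, of stroma, had 1.20 and 0.295 in the group means. Of the compared members of these lists, Thy1 had 29.7 and 21.7 against 22.97, and Car2, a carbonic anhydrase on the erythroid list, had 111 and 82.6 against 137. Thbs1, on the stromal list, had 11.6 and 21.9 against 3.38, below both libraries, and Fn1, fibronectin, had 8.95 and 20.2 against 12.1, between them. Zap70, Lat and Lck, signalling genes first known from T cells, went the other way. Zap70 had 1.88 and 3.09 against 6.39, Lat 15.6 and 7.73 against 25.9, and Lck 19.2 and 18.5 against 30.8, each above both libraries.

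**Figure D3:**
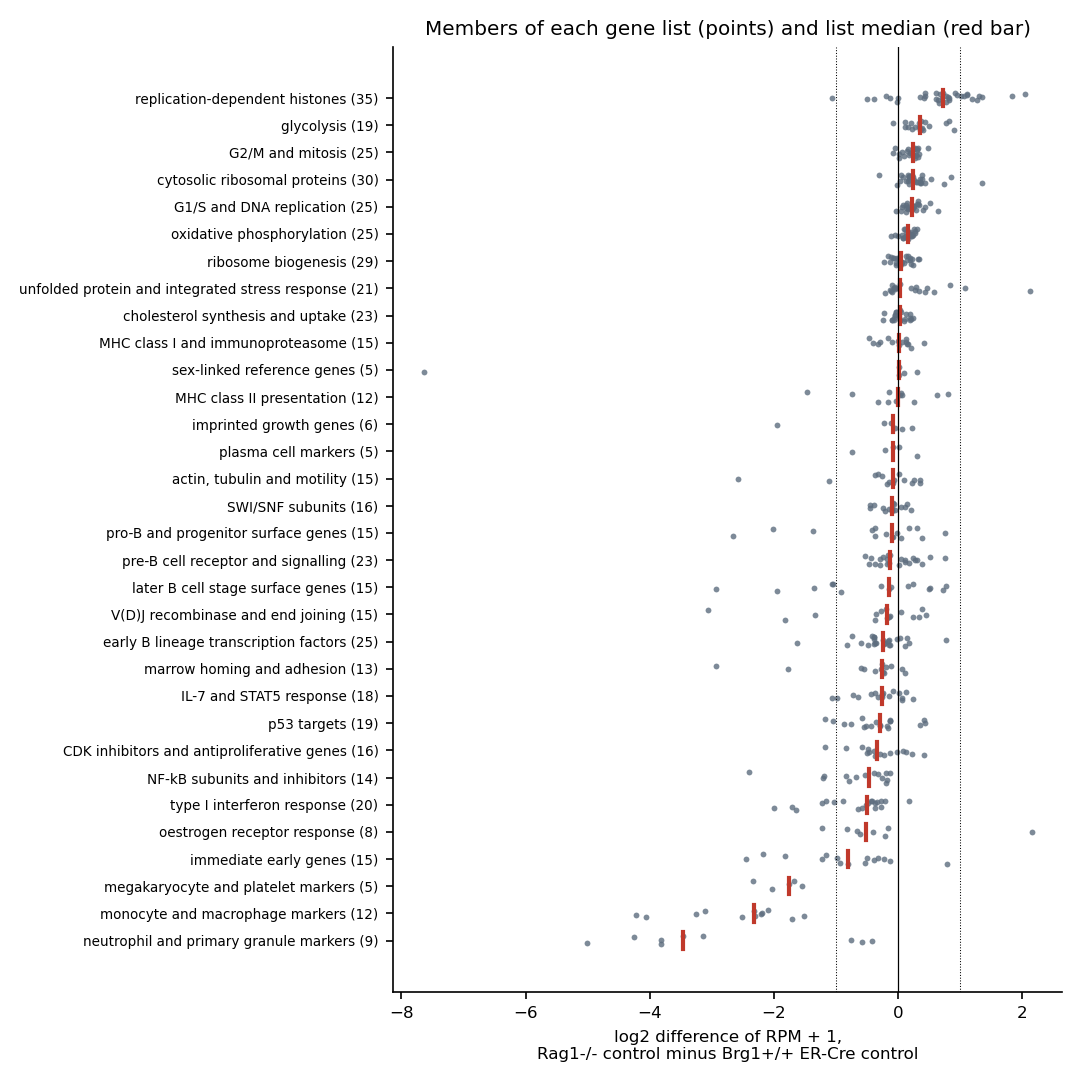
Log2 difference (Rag1-/- minus Brg1+/+ ER-Cre control, RPM plus 1) of every compared member (points) of the lists with at least 5 such members, the number in brackets, with the list median as a red bar and dotted lines at 2-fold. The medians of the granule, monocyte and platelet lists are -3.47, -2.31 and -1.75, and those of the growth lists lie near 0.

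Lists of growth and metabolism lay close to 0. The medians were 0.36 for glycolysis (19 compared genes), 0.23 for DNA replication (25), 0.25 for mitosis (25), 0.15 for oxidative phosphorylation (25), 0.05 for ribosome biogenesis (29) and 0.03 for cholesterol synthesis (23). No member of these lists passed 2-fold, where 4.81% of all compared genes did. Mki67, the proliferation antigen, had means of 2471 and 2505. Small differences in 1 direction ran through some of these lists, with 24 of 25 replication genes and 18 of 19 glycolysis genes above 0, where 44.0% of all compared genes were. For glycolysis the deeper library was the higher one in 13 of 14 split members, and the median was 0.04 without the shallower library. The DNA replication median was 0.30 without the deeper and 0.20 without the shallower library, and that of mitosis 0.27 and 0.30. Among 30 compared genes of cytosolic ribosomal proteins the median was 0.24, with 28 above 0 and 2 below. Of these 30, Rpl3 alone was at least 2-fold higher, as 1.19% of all compared genes were. The list leaves out some ribosomal protein genes, among them Rps16 (5.18), which is described below with its copies. Eno1, the glycolytic enolase, had means of 535 and 950.5. Myc, which drives growth genes, had means of 187 and 196.

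Of 18 compared genes of the IL-7 and STAT5 response, 1 was 2-fold lower, a share near the 3.62% of all compared genes. Pim2, a survival kinase downstream of cytokines, had 39.1 and 33.7 RPM against 17.0, and its relative Pim1 had means of 384 and 193. Socs2 and Cish, feedback inhibitors, had 602 and 512 against 524, and 94.1 and 99.1 against 71.0.

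Lists of signal-dependent genes had medians below 0, and the Brg1+/+ libraries lay far apart for many immediate early and interferon genes. The median log2 difference of the shallower over the deeper library was 0.96 and 0.88 in those lists, and 0.23 for NF-kB genes. All 14 compared NF-kB subunits and inhibitors had a value below 0, with a median of -0.46, and 11 of 14 lay below both libraries, where 35.1% of all split genes did. Bcl3, an atypical inhibitor of the pathway, had 8.57 and 17.5 RPM against 1.67 (log2 difference -2.39). Nfkb2 and Relb, which form the noncanonical dimer, had 35.5 and 42.0 against 16.2, and 15.8 and 20.9 against 7.51. These 3 were past 2-fold and outside both libraries, while Rela, the main canonical subunit, had 85.2 and 82.6 against 76.4. The immediate early genes had a median of -0.81, which was -0.13 without the shallower library. Fos had 1.22 and 24.2 against 2.03, between the libraries, and Jun had 34.6 and 85.4 against 16.3, below both. In 13 of 15 of these genes the shallower library was the higher one. The type I interferon list behaved alike, with a median of -0.50, 6 of 20 members at least 2-fold lower (3.62% of all compared genes were) and the shallower library higher in 17 of 20. Oas2, an antiviral synthetase, had 0.942 and 17.0 against 2.04. Bcl3, Fos and Oas2 were under the floor of 5 RPM in the Rag1-/- mean, which fixes their direction, though not its size. Without the shallower library the interferon median was -0.14, and without the deeper it was -0.94.

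Amino acid stress genes included a named higher gene. Chac1, which degrades glutathione, had 8.01 and 1.74 RPM in the Brg1+/+ libraries and 24.7 in the Rag1-/- mean (log2 difference 2.13). Trib3 had 15.1 and 3.29 against 20.4, and Asns, asparagine synthetase, had 118 and 33.8 against 136. In these genes the deeper library was several times the shallower, and the Rag1-/- mean was above both. For Chac1 a 4-fold difference from the mean of 2 libraries makes that certain. Chac1 was also under the floor of 5 RPM in the Brg1+/+ mean, at 4.87, which fixes its direction. Hspa5, a chaperone of the same list, had means of 588 and 546, and the median of the 21 compared members was 0.03.

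Tgfb3 was among the genes with the highest log2 differences outside gene copies, together with a neighbour. Tgfb3, a TGF-beta ligand (mm10 chr12:86056744-86079041, minus strand), had 3.39 and 6.48 RPM in the Brg1+/+ libraries and 126 in the Rag1-/- mean (log2 difference 4.42). Ift43, which encodes a subunit of the intraflagellar transport complex, starts 3.52 kb from Tgfb3 on the opposite strand and had 0.0942 and 1.45 against 6.22 (2.03). Ttll5, which overlaps the Tgfb3 interval, had 49.2 and 43.1 against 50.6. Tgfb3 and Ift43 point away from each other. The Rag1-/- mean was above both libraries for both, which a 4-fold difference from their mean makes certain. Tgfb3 and Ift43 were under the floor of 5 RPM in the Brg1+/+ mean, which fixes their direction, though not its size. The Rag1-/- libraries could not be separated, so whether 1 or all 3 of them carried these levels was not tested.

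**Figure D4:**
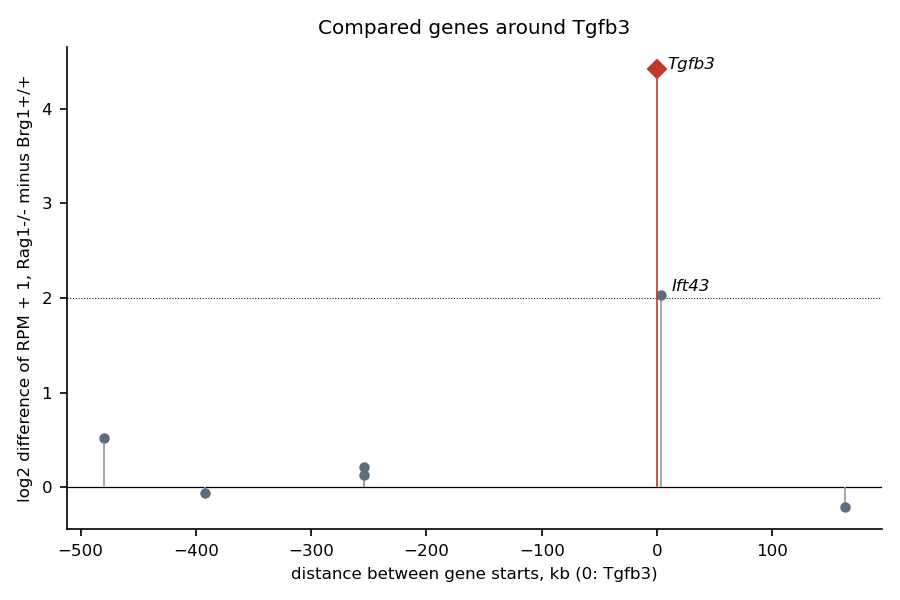
Log2 difference (Rag1-/- minus Brg1+/+ ER-Cre control, RPM plus 1) of compared genes by the distance of their start from that of Tgfb3 (diamond), in kb, with the dotted line at 4-fold. Ift43, the nearest start, is the only other gene past the line among those compared within 500 kb.

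Other named higher genes were low in the Brg1+/+ libraries. Tmem59l, which encodes a transmembrane protein, had 6.97 and 4.25 RPM against 59.1 (log2 difference 3.18). Ptpn14, a protein tyrosine phosphatase, had 13.5 and 13.0 RPM against 76.8 (log2 difference 2.45). Pgr, the progesterone receptor and a target of the oestrogen receptor, had 0.377 and 0.483 against 5.36 (2.15). It was higher in the group without tamoxifen, a ligand of the oestrogen receptor, while Esr1, the receptor itself, had 23.9 and 15.1 against 12.0. Whether tamoxifen had a part in these values was not tested, since it changed together with the Rag1 genotype, infection and experiment. Of the 8 compared oestrogen response genes, Pgr was the 1 above 0, and Ctsd, cathepsin D, was the 1 at least 2-fold lower, at 120 and 265 against 82.1. Of all compared genes, 44.0% were above 0, 1.19% at least 2-fold higher and 3.62% at least 2-fold lower. Mos, an oocyte kinase, had 1 read in the deeper library and none in the shallower (0.0942 and 0 RPM, a count of 0 allowing up to 0.290) against 6.64. Mpp3 had 0.377 and 0.483 against 12.4, Als2cl 1.98 and 1.93 against 11.3, Rnase12 0.659 and 1.16 against 6.84, and Nlrp3, the inflammasome sensor, 1.04 and 3.00 against 10.3. Both Brg1+/+ libraries lay below the Rag1-/- mean in each, which differences of this size from the mean of 2 libraries make certain. Pgr, Mos, Mpp3, Als2cl, Rnase12 and Nlrp3 were under the floor in the Brg1+/+ mean. They were compared through the Rag1-/- mean alone, which fixes their direction. The log2 difference of Nlrp3 was 1.91, just under the 4-fold minimum.

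Named lower genes included Ctse, an aspartic protease, at 133 and 116 RPM against 5.72 (log2 difference -4.22). Ifi204, an interferon-induced DNA sensor of myeloid cells, had 17.3 and 21.2 against 0.455 (-3.80), and C3, a complement component, had 26.1 and 30.2 against 1.43 (-3.58). For these 3 genes the libraries were close and the Rag1-/- mean was far below them. Mpeg1, a perforin of macrophages, had 39.0 and 111 against 5.87. Lrp1, an endocytic receptor, had 25.5 and 100.6 against 5.43, and Emilin2, a matrix glycoprotein, had 18.6 and 35.0 against 1.71. In these the shallower library was the higher one, and both lay above the Rag1-/- mean. Ifi204, C3 and Emilin2 were under the floor of 5 RPM in the Rag1-/- mean, which fixes their direction, though not its size.

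Xist, the long RNA of the inactive X chromosome (mm10 chrX:103460375-103483217), had the lowest log2 difference of all, -7.64, with means of 350 in the Brg1+/+ controls and 0.755 in the Rag1-/- controls. The Brg1+/+ mean of Xist fits whole reads in 3 ways, as 0.754 and 699 RPM in the deeper and shallower library, as 422 and 278, or as 609 and 90.9. Y-linked genes were present in both Brg1+/+ libraries and in the Rag1-/- mean. Ddx3y had 83.0 and 54.6 against 84.9, Kdm5d 42.1 and 25.4 against 34.2, and Eif2s3y 76.0 and 58.6 against 68.0. The Brg1+/+ mean thus held Xist and Y-linked RNA, while the Rag1-/- mean held Y-linked RNA and almost no Xist. The labels give no sex, and its part in the other differences was not tested.

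A share of the extreme values came from genes with near-identical copies, among which reads can be divided in more than 1 way. Tpm3-rs7, a related sequence of the tropomyosin gene Tpm3, had the highest log2 difference of all, 6.65, with 4.05 and 1.84 RPM against 395. Tpm3 itself had means of 850.3 and 380.4 (-1.16), and the sum of both differed by -0.14. Rps16, a ribosomal protein gene, had 6.03 and 9.86 against 323 (5.18), its pseudogene Rps16-ps2 had means of 676 and 513, and their sum with a further copy differed by 0.29. Gm8730, described in the deposited tables as a pseudogene of the ribosomal protein gene Rplp0, had means of 276 and 1.79 (-6.63), while Rplp0 had means of 1680.3 and 2421 (0.53) and the sum over its copies differed by 0.21. In these 3 families the gene and its copy differed in opposite directions, and the sum lay near 0. The families were chosen after their values were seen. Of the 31 higher genes 16 were predicted genes, Riken clones, pseudogenes or related sequences, and of the 140 lower genes 25 were. When each gene was summed with its named copies, 19 higher and 122 lower summed units passed 4-fold. Values of such genes are uncertain, and how the 2 tables assigned reads to copies was not tested.

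**Figure D5:**
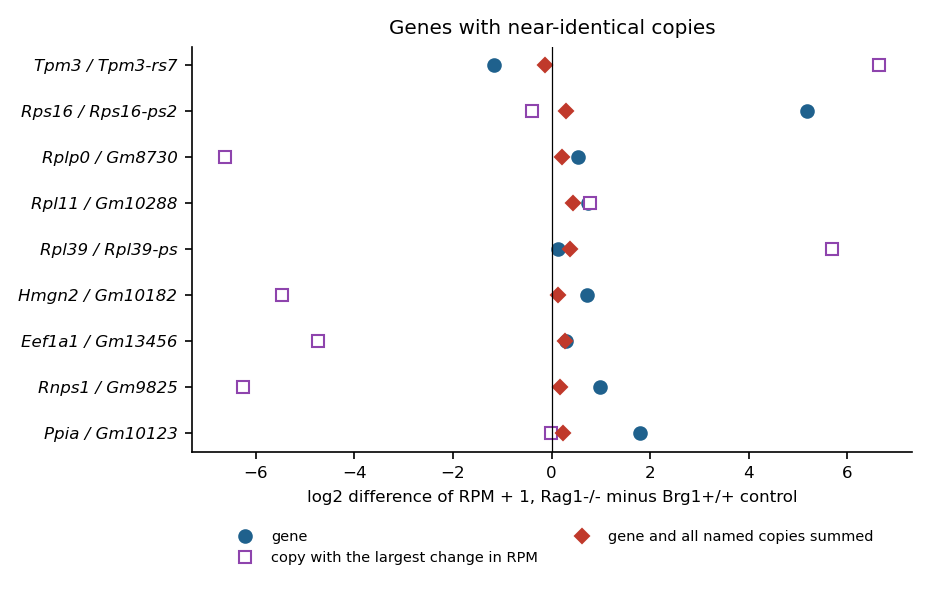
Log2 difference (Rag1-/- minus Brg1+/+ ER-Cre control, RPM plus 1) of 9 genes (circles), of the copy of each whose RPM changed most (squares), and of the gene summed with all its named copies (diamonds). The diamonds lie between -0.14 and 0.43, while the copies reach from -6.63 to 6.65.

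Histone genes, whose replication-dependent transcripts mostly lack a poly(A) tail, stood out upward. Of 35 compared, 10 were at least 2-fold higher and 1 lower, with a median of 0.72, where 1.19% of all compared genes were 2-fold higher. Hist1h2ag had 3.01 and 3.38 RPM in the Brg1+/+ libraries and 16.3 in the Rag1-/- mean (log2 difference 2.04). Hist1h2bh had 2.26 and 2.61 against 7.76, and Hist2h3c2 had 12.4 and 11.3 against 26.9. Hist1h2ag and Hist1h2bh were under the floor of 5 RPM in the Brg1+/+ mean. Such members were compared through the Rag1-/- mean alone, which fixes their direction, though not its size. The list median was 0.41 without the deeper library and 1.08 without the shallower. The Rag1-/- mean was above both libraries in 26 of 35, where it was in 26.1% of all split genes, and the shallower library was the higher one in 29 of 35. Hist1h2af went the other way in the mean, at 18.5 and 121 against 32.9, between the libraries. Histone genes are near-identical to each other and the libraries were made from poly(A) RNA, and the part of each in these values was not tested.

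Smarca4, which encodes Brg1, had similar RNA levels in both control groups, with means of 1729 and 1503 RPM. None of the 16 compared SWI/SNF subunits passed 2-fold, where 4.81% of all compared genes did, and their median was -0.09. H19, an imprinted RNA, was the 1 of 6 compared imprinted genes past 2-fold, at 25.6 and 10.7 against 3.97. Both lists are too short for such counts to be set apart from that share. H19 was under the floor of 5 RPM in the Rag1-/- mean, which fixes its direction, though not its size.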

How the data were processed

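The libraries held polyA RNA with its strand marked by dUTP, according to the labels. Each deposited table gives a signal per gene and group, a mean of reads divided by size factors. CASAVA, RSEM, DESeq and the mm10 build are named in the submitters' processing notes, without versions or settings. Both control columns were scaled to a sum of 1000000 over 17846 shared genes, of 19404 and 19719 listed, and genes with at least 5 reads per 1000000 (RPM) in either were kept. Differences are log2 ratios with 1 RPM added. Since a Brg1+/+ mean is a sum of whole reads times 2 steps, reads per library were recovered to a tolerance of 6e-05. This gave 1 solution for 18458 of 19404 genes (95.1%), and the recovery was tested on simulated data. Python 3.11.15, numpy 2.4.6, pandas 2.3.3 and matplotlib 3.10.9 were used.

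No test was possible, since 1 group has no values per library and the cultures differ in several ways. Named genes were Rag1, Rag2 and Smarca4, the 15 highest and 15 lowest log2 differences outside predicted genes, Riken clones, pseudogenes, receptor segments and sequence-named clones, and up to 6 members of each list, plus members whose role was needed. Members and the 36 gene lists were chosen with earlier results of these data known. Alternatives changed the scaling, pseudocount, floor, fold minimum, window, libraries, the marked genes and the treatment of copies. Some genes carry a mark by the authors as confounded, which no source used here defines. The Brg1-depleted groups and the other 21 samples were not analysed here. Zero limits cover counting error only. Some genes that meet these rules are not reported here.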

Additional observations from a re-analysis of the deposited data

How the results depend on the processing

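No paired analysis was possible because the columns are group means that carry no replicate numbers and the result comes from no test. The 31 higher and 140 lower genes at 4-fold became 17 and 43 at a floor of 20 RPM, which tests fewer genes, and 124 and 377 at a 2-fold minimum. Genes 4-fold apart between the Brg1+/+ libraries went from 143 to 58 at that floor. Without the genes marked by the authors, 92 of only 5788 genes compared were lower. Leaving out 1 Brg1+/+ library gave 47 to 55 higher genes, 78 (without the shallower) to 227 (without the deeper) lower genes, and 4 to 5 lists with a median past 2-fold in place of 3. The added lists were immediate early genes (-1.08) without the deeper library, and MHC class II (1.86) and histones (1.08) without the shallower. In these settings a single library replaces a mean, and the cause of each shift was not tested. Among alternatives chosen after seeing the data, summing copies gave 19 higher genes, and requiring 4-fold beyond both libraries gave 61 lower genes. Of 30 alternatives for these counts, 17 kept the count within 1.5 times, including the other scalings, a pseudocount of 0.25 and a floor of 1. Of 244 values for the named genes, 0 changed sign, 4 fell under 4-fold, and 2 of Nlrp3, which is under it, passed it. Scaling moved the median of all genes by under 0.1. Depth limits low genes most, since 5 RPM is about 105 reads over the Brg1+/+ libraries.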

Other observations

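Several further genes were singled out after their values were seen. No list or test stands behind them. Pag1, a transmembrane adaptor that anchors Csk, had 114 and 109 RPM in the Brg1+/+ libraries and 351 in the Rag1-/- mean (log2 difference 1.64). The adaptor Lax1 had 7.91 and 5.32 against 23.1 (1.66), and Sit1 had 13.3 and 16.1 against 34.0 (1.15). These lay above both libraries. Lat2, the relative used by B cells, had 7.82 and 22.1 against 19.3, between the libraries, and Lime1 had 16.4 and 11.9 against 9.49, below both. Dtx1 and Heyl, known as Notch targets, had 14.9 and 7.25 against 35.9, and 2.17 and 3.67 against 8.02.

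Some genes outside the lists described were lower, again picked for their values. Cebpa, a factor of granulocyte and monocyte progenitors, had 7.72 and 13.0 RPM against 0.916, and Csf3r, the G-CSF receptor, had 9.42 and 13.2 against 0.669. F13a1, a coagulation factor made by monocytes and platelets, had 41.7 and 42.0 against 3.40. Cybb, the phagocyte oxidase subunit, had 36.1 and 87.6 against 6.30. In all of these the Rag1-/- mean was below both Brg1+/+ libraries. Cebpa, Csf3r and F13a1 were under the floor of 5 RPM in the Rag1-/- mean, which fixes their direction, though not its size. Col5a3, a collagen, had 43.1 and 31.1 against 5.45, and Gpnmb, a glycoprotein of macrophages, had 56.1 and 282 against 39.7. The part of other cells in these values was not tested.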
